A study of Mus musculus with 9 samples.

Results

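Irf4, Irf8, Batf3, Zeb1, Zeb2, Id2, Tcf4, Spi1, Klf4 and Nfil3 are transcription factors that set the identity of dendritic cells and of their subtypes. They were chosen by gene symbol, as probe sets that name only one of these genes, with the highest mean over the 9 arrays as the rule for choosing between probe sets. All 10 were found, among 19938 genes measured, and each had a single probe set, so no choice was needed. The study profiled dendritic cells, grown from mouse bone marrow progenitors, on Affymetrix gene arrays, with 3 arrays from separate cultures in each of 3 groups. The first group was JmjD2d-knockdown cells stimulated for 4 h with 100 ng/ml LPS, the bacterial cell wall component sensed by Toll-like receptor 4. The second was untransduced wild-type cells given the same LPS, and the third was untransduced wild-type cells left unstimulated. All groups came from progenitors kept in medium with 20 ng/ml each of IL-6, SCF and IL-3 and were differentiated over 8 days, first in GM-CSF (4% supernatant) with 5 ng/ml SCF for 4 days and then in GM-CSF without SCF. The knockdown cells carried a hairpin against JmjD2d, the histone demethylase encoded by Kdm4d, from a retrovirus, and were selected in 2 mM histidinol. The wild-type cells had neither virus nor hairpin, so loss of JmjD2d cannot be told apart from infection and selection. The labels give neither the strain nor the age of the mice.

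Dendritic cells fall into subtypes that depend on different combinations of these factors. Spi1 encodes PU.1, an ETS factor needed for myeloid cells in general, and IRF8 and IRF4 bind DNA with PU.1 or with BATF-family proteins. IRF8 and BATF3 are known for the cross-presenting cDC1 subtype, IRF4 for the cDC2 subtype and for cells grown in GM-CSF, and TCF4 (E2-2) for plasmacytoid dendritic cells (pDC). ID2 binds E proteins such as TCF4 and keeps them off DNA, while NFIL3 and ZEB2 are known to act on Id2 in dendritic cell progenitors.

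Of these genes, Irf4, Irf8 and Batf3 were the members with sequence at hand whose knockdown values all lay below the wild-type LPS values, and their promoters are shown for that reason. RefSeq windows (build GRCm38.p6) of 250 bases before and 50 after an annotated start were at hand for 7 of the 10 members, all but Zeb1, Tcf4 and Spi1. Irf4 is on chr13:30748983-30749282, plus strand. Of 2 windows for Irf8, the first is on chr8:120736108-120736407, plus strand, and Batf3 on chr1:191098164-191098463, plus strand. All 3 windows are written 5′ to 3′, and capitals mark matches of the motif TTCNNNGAA, the core of the site that STAT factors bind.
Irf4: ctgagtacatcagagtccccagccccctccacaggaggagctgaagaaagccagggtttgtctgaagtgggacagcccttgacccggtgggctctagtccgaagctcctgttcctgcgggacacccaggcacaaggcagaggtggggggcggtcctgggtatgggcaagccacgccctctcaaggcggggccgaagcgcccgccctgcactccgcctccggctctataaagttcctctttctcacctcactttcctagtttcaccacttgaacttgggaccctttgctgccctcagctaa
Irf8: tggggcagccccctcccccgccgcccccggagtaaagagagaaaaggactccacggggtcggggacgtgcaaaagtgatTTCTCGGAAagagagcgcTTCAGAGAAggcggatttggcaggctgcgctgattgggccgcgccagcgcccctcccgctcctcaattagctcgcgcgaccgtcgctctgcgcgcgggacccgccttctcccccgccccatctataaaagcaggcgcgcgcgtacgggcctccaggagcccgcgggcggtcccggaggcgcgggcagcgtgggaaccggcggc
Batf3: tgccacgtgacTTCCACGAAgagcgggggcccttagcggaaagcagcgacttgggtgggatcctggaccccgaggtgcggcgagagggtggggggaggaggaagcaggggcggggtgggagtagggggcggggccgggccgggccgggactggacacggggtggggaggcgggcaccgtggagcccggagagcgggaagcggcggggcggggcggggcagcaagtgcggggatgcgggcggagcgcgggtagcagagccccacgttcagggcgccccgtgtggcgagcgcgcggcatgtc
The Irf8 window holds 2 matches of TTCNNNGAA, at positions -171 to -163 and -153 to -145 counted from the start at 0. Batf3 has 1, at -239 to -231, and the motif reads the same on both strands. Among all 32851 windows of this length 8.3% hold it. The second Irf8 window, chr8:120738389-120738688, plus strand, has none and holds 1 match of the ZEB site on the minus strand. TTCNNNGAA was also found in 2 overlapping windows of Zeb2, whose knockdown and wild-type LPS values overlapped. The Irf4 window had no match of any motif searched, which were the interferon response element (GAAA, 2 free bases, GAAA), the joint PU.1 and IRF element (GGAA, 1 free base, TGAAA), the AP-1 site TGANTCA, the PU.1 site GAGGAAGT, the ZEB site CACCTG, the NFIL3 site TTATGTAA, the STAT core and the NF-kB consensus, on both strands. The shares of all windows with a match were 3.44% for the interferon response element, 0.731% for the joint element, 7.81% for AP-1, 3.2% for PU.1, 20.2% for ZEB, 0.938% for NFIL3 and 4.51% for NF-kB. A match of letters is a description of the window and not a binding site.

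Values are log2 signals that the authors made with RMA, which gives no detection call, so a low signal is not a measured absence. Array medians were 7.22 to 7.32, and r between replicate arrays, over genes, was 0.985 to 0.997. Kdm4d, the targeted gene, read 7.43, 7.11 and 7.40 in the knockdown arrays, against 7.79, 7.54 and 7.74 in the wild-type LPS arrays and 7.24, 7.65 and 7.62 in the unstimulated ones. Its difference between knockdown and wild-type cells after LPS was -0.37 (SE 0.13, limma adjusted p = 0.278). Of the defining dendritic cell markers, Itgax (CD11c) averaged 12.46, 12.94 and 12.98 in knockdown, wild-type LPS and unstimulated cells, and Cd74, the MHC class II invariant chain, 12.72, 13.76 and 13.75. Some other markers of that list were lower by more, while Zbtb46 and Dpp4 overlapped between knockdown and wild-type LPS cells. Zbtb46 read 7.60, 7.38 and 7.65 in knockdown arrays, against 8.27, 7.33 and 7.91 in wild-type LPS arrays. Dpp4 read 6.35, 6.33 and 6.35, against 6.35, 6.35 and 6.45. Ccr7 read 9.75, 7.71 and 7.74 in knockdown arrays, against 11.54, 11.01 and 11.08 in wild-type LPS arrays. H2-Eb1 read 12.57, 10.60 and 10.52, against 13.62, 12.86 and 13.48, and H2-Ab1 12.79, 10.42 and 10.52, against 13.68, 12.93 and 13.55. At a raw p under 0.05, 7 of the 11 listed markers were lower in the knockdown and 0 higher. The share of all genes under that cut was not counted. At a limma adjusted p under 0.05, 1 of the 11 was lower and 0 higher, against 0.361% and 0.401% of all genes. In knockdown, wild-type LPS and unstimulated cells, Flt3 averaged 6.59, 6.76 and 6.53, the cDC1 receptor Xcr1 6.21, 6.36 and 6.22, and the pDC lectin Siglech 6.69, 6.80 and 6.70. Signals of different probe sets are not comparable, so these values do not rank the genes.

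**Figure D1:**
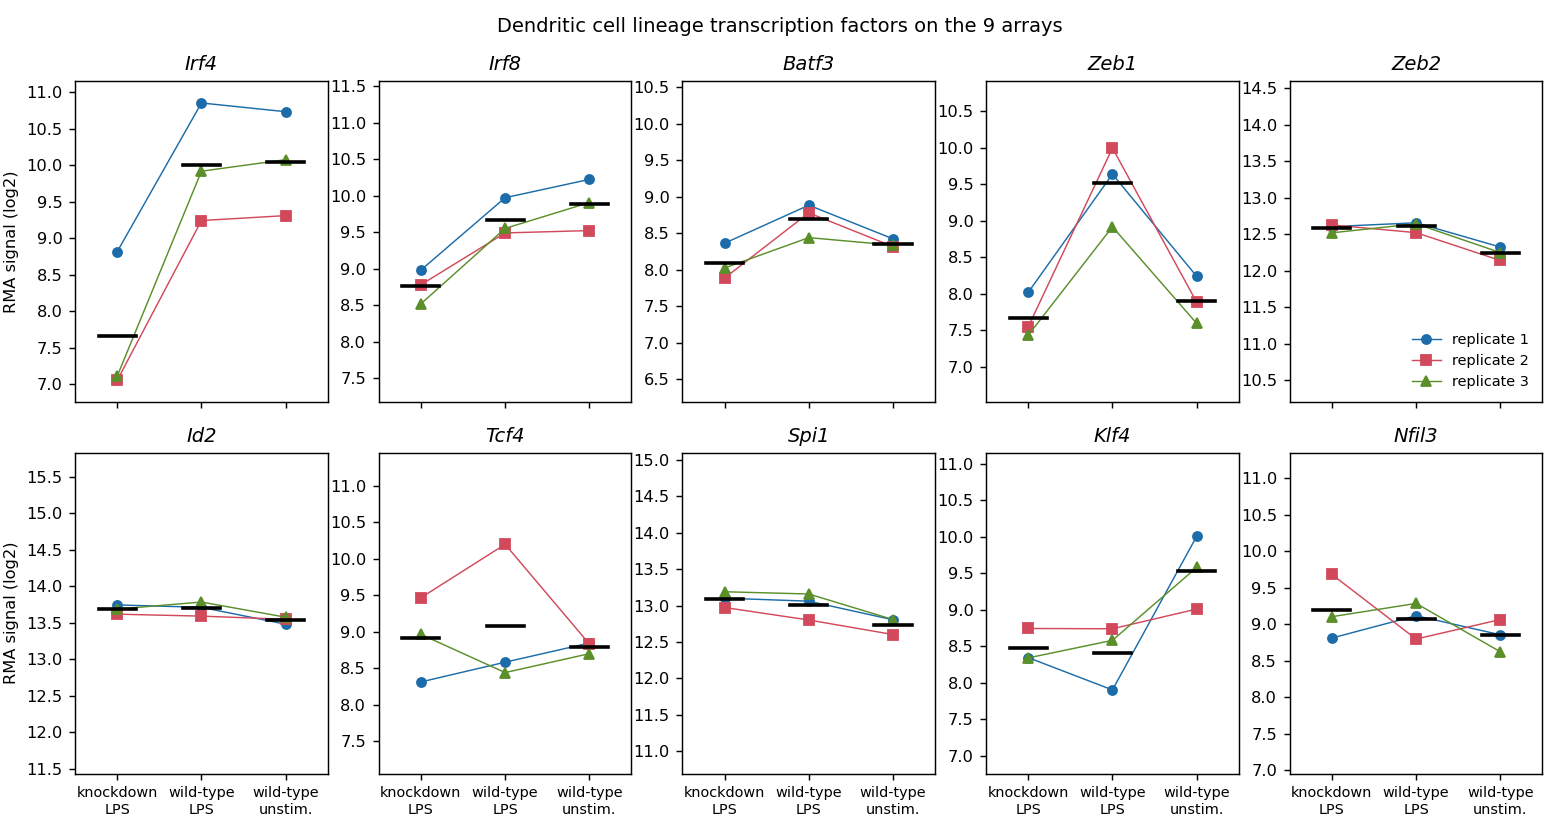
RMA log2 signal (vertical axis, spanning 4.4 log2 units in each panel) of the 10 factors in knockdown LPS, wild-type LPS and unstimulated wild-type cells. Points are single arrays, lines join arrays with the same replicate number and black bars are group means (n = 3). For Irf4, Irf8, Batf3 and Zeb1 all 3 knockdown points lie below all 3 wild-type LPS points.

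The comparison in the series title asks how knockdown cells differ from wild-type cells after LPS. Zeb1, an E-box repressor and the paralog of Zeb2, was 3.61-fold lower in knockdown cells and passed the test over all genes. Irf4, Irf8 and Batf3 were 5.08-fold, 1.88-fold and 1.53-fold lower, and passed in a fit that pairs arrays by replicate number but not in the group fit. The other 6 factors differed by at most 0.16 on the log2 scale. By limma with Benjamini-Hochberg adjustment, 1 of the 10 factors fell and 0 rose, where 0.361% of all genes fell and 0.401% rose, 0.762% in either direction. At an unadjusted (raw) p under 0.05 the counts were 4 lower and 0 higher. The share of all genes under that cut was not counted. Counts by raw p, here, for the dendritic cell markers above and for the lists below, thus have no baseline. The paired fit called 4 lower and 0 higher, where it called 1.24% of all genes lower and 1.51% higher, 2.75% in either direction. In 4 factors all 3 knockdown values were below all 3 wild-type LPS values, against 8.38% of all genes, and in 0 were they all above, against 8.21% (16.6% either way).

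Irf4, the factor of cDC2 and of GM-CSF-grown cells, read 8.82, 7.06 and 7.11 in knockdown arrays 1 to 3, against 10.86, 9.25 and 9.92 in the wild-type LPS arrays of the same numbers and 10.74, 9.31 and 10.08 in the unstimulated ones. The knockdown arrays were the lowest, without overlap with either wild-type group, and array 1 was the highest of each group. Between knockdown and wild-type cells after LPS the difference was -2.34 (SE 0.59, 95% confidence interval -3.70 to -0.99, limma adjusted p = 0.124), and it was -2.04, -2.19 and -2.81 within the numbered pairs. With arrays paired, its standard error was 0.18 and its limma adjusted p 0.00601. In the paired fit the adjusted p was 0.0754 without replicate number 1, 0.00744 without number 2 and 0.0816 without number 3, with differences of -2.50, -2.42 and -2.11. The spread within groups was wide, with an SD of 1.001 in knockdown, 0.81 in wild-type LPS and 0.71 in unstimulated cells.

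Irf8, the factor of cDC1 and plasmacytoid cells, read 8.99, 8.78 and 8.52 in knockdown arrays, against 9.98, 9.49 and 9.56 in wild-type LPS arrays and 10.23, 9.53 and 9.91 in unstimulated arrays. Again the knockdown values were the lowest and did not overlap the others, and the wild-type groups overlapped each other. The knockdown difference after LPS was -0.91 (SE 0.20, 95% confidence interval -1.38 to -0.44, limma adjusted p = 0.091, paired 0.0201), lower in 3 of 3 pairs. Without replicate numbers 1, 2 and 3 the paired fit gave adjusted p of 0.215, 0.00419 and 0.309.

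Batf3, a basic leucine zipper partner of IRF4 and IRF8 known for cDC1, read 8.37, 7.89 and 8.03 in knockdown arrays, against 8.89, 8.78 and 8.44 in wild-type LPS arrays and 8.42, 8.32 and 8.34 in unstimulated arrays. Wild-type LPS arrays were the highest and overlapped neither other group. The knockdown difference was -0.61 (SE 0.14, 95% confidence interval -0.94 to -0.28, limma adjusted p = 0.108, paired 0.0435). Without replicate numbers 1, 2 and 3 the paired fit gave adjusted p of 0.242, 0.0555 and 0.331.

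Zeb1 read 8.02, 7.55 and 7.43 in knockdown arrays, against 9.64, 9.996 and 8.92 in wild-type LPS arrays and 8.24, 7.88 and 7.59 in unstimulated arrays. Only the wild-type LPS arrays were high, and the knockdown and unstimulated arrays overlapped. Its difference between knockdown and wild-type cells after LPS was -1.85 (SE 0.29, 95% confidence interval -2.51 to -1.19, limma adjusted p = 0.0366, paired 0.0111), at -1.62, -2.45 and -1.49 in the pairs. The call rested on most arrays. The limma adjusted p was 0.091 without knockdown array 2, 0.129 without knockdown array 3 and 0.132 without wild-type LPS array 1. It was 0.0568, 0.0502 and 0.0624 without unstimulated arrays 1, 2 and 3, and 0.0931 in a fit of the 2 compared groups. The paired fit gave 0.129, 0.00155 and 0.193 without replicate numbers 1, 2 and 3. Among all alternatives run the difference stayed between -2.15 and -1.55.

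Zeb2, a repressor known for plasmacytoid and cDC2 development, read 12.61, 12.63 and 12.52 in knockdown arrays, against 12.66, 12.52 and 12.64 in wild-type LPS arrays. The groups overlapped, and the difference of -0.02 had a 95% confidence interval of -0.18 to 0.14 (limma adjusted p = 0.91). Id2, the partner that holds E proteins off DNA, read 13.74, 13.61 and 13.68 in knockdown arrays, against 13.71, 13.59 and 13.78 in wild-type LPS arrays, a difference of -0.01 (95% confidence interval -0.17 to 0.15, limma adjusted p = 0.953). For these genes and for Spi1 (0.08, interval -0.17 to 0.33) the intervals leave room only for small differences. Those of Klf4 (0.07, -0.59 to 0.73), Nfil3 (0.13, -0.39 to 0.65) and Tcf4 (-0.16, -1.21 to 0.89) were wider.

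**Figure D2:**
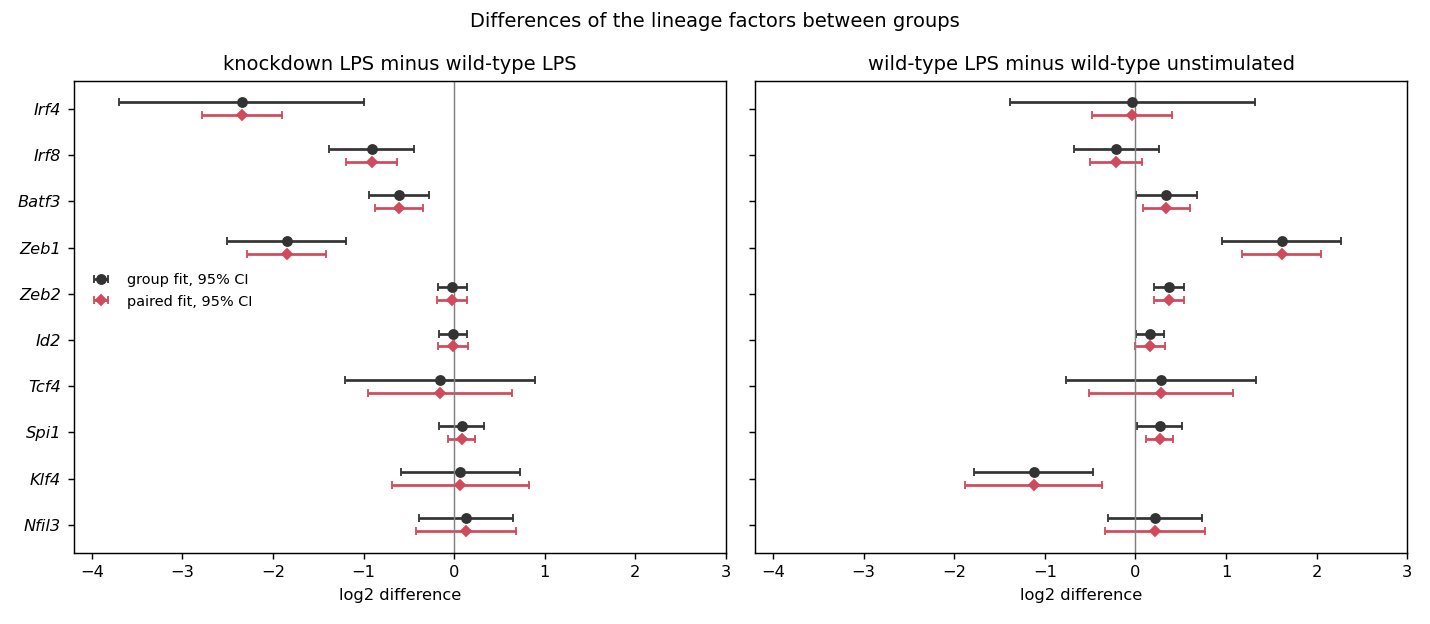
Log2 difference (horizontal axis) of each factor for knockdown minus wild-type cells after LPS (left) and for LPS-treated minus unstimulated wild-type cells (right). Circles are the fit on groups and diamonds the fit paired by replicate number, with 95% confidence intervals from limma. Irf4 has the largest difference in the knockdown at -2.34, with an interval of -3.70 to -0.99 in the group fit and -2.78 to -1.91 in the paired fit.

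The second comparison asks what LPS did in wild-type cells. Zeb1 rose 3.06-fold and Zeb2 1.29-fold, and Klf4, a zinc finger factor of monocytes and of a cDC2 subset, fell 2.18-fold. In all, 2 of the 10 factors rose and 1 fell by limma, where 3.99% of all genes rose and 6.86% fell, 10.9% in either direction. In the paired fit 3 rose and 0 fell, against 5.19% and 9.57% of all genes, 14.8% in either direction. LPS values lay wholly above the unstimulated ones for 4 factors, against 12.8% of all genes, and wholly below for 1, against 16.5% (29.3% either way). The median difference was 0.24 over the 10 factors and 0.04 over all genes. This comparison shares its wild-type LPS arrays with the knockdown comparison, so the values of the 2 comparisons are not independent.

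Zeb1 differed by 1.61 (SE 0.29, 95% confidence interval 0.95 to 2.27, limma adjusted p = 0.011), at 1.40, 2.11 and 1.32 in the pairs, with an adjusted p of 0.0507 without unstimulated array 3. Zeb2 read 12.66, 12.52 and 12.64 in wild-type LPS arrays, against 12.33, 12.14 and 12.25 in unstimulated arrays, with no overlap. Its difference was 0.37 (SE 0.07, limma adjusted p = 0.0143) and was near the same size in each pair, at 0.33, 0.38 and 0.39. Without wild-type LPS array 1 or 3 its limma adjusted p was 0.0546 or 0.0643, and without unstimulated array 3 it was 0.0549. In the paired fit without replicate numbers 1 and 3 the adjusted p was 0.152 and 0.266 for Zeb2, and 0.0877 and 0.0672 for Zeb1. Both ZEB genes were thus higher after LPS in wild-type cells, while only Zeb1 passed the test in the knockdown comparison.

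Klf4 read 7.90, 8.74 and 8.58 in wild-type LPS arrays, against 10.01, 9.01 and 9.58 in unstimulated arrays. The groups did not overlap, but the pairs differed unequally, by -2.10, -0.27 and -0.998. Its difference was -1.12 (SE 0.29, limma adjusted p = 0.0423), and the adjusted p was 0.0603 in the paired fit. The call was lost without wild-type LPS array 1 (0.127) or 3 (0.1), unstimulated array 1 (0.131) or 3 (0.122), and knockdown array 1 (0.0654) or 3 (0.0653). It was also lost with median centring (0.0617), with quantile normalization (0.0523) and in a fit of the 2 groups (0.0816).

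Spi1 read 13.06, 12.80 and 13.16 in wild-type LPS arrays, against 12.80, 12.60 and 12.81 in unstimulated arrays. Its difference of 0.27 (SE 0.11, limma adjusted p = 0.16, paired 0.0341) was higher in 3 of 3 pairs, by 0.25, 0.20 and 0.35, and the adjusted p was 0.0363 without wild-type LPS array 2. Without replicate numbers 1 and 3 the paired call was lost (0.201 and 0.44). Id2 read 13.71, 13.59 and 13.78 in wild-type LPS arrays, against 13.48, 13.54 and 13.57 in unstimulated arrays, which did not overlap (0.16, SE 0.07, limma adjusted p = 0.181). Batf3 did not overlap either (0.34, SE 0.14, limma adjusted p = 0.178, paired 0.0899). Irf4 differed by -0.04, with a 95% confidence interval of -1.39 to 1.32 in the group fit and of -0.48 to 0.40 in the paired fit. Irf8 differed by -0.21 (limma adjusted p = 0.524), lower in 3 of 3 pairs. In the paired fit the adjusted p of Irf8 was 0.294, and 0.0333 without replicate number 2.

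Nfil3, a leucine zipper repressor known for cDC1 development, read 8.81, 9.68 and 9.11 in knockdown arrays, against 9.12, 8.80 and 9.29 in wild-type LPS arrays and 8.86, 9.07 and 8.63 in unstimulated arrays. All 3 groups overlapped. Tcf4 read 8.31, 9.47 and 8.97 in knockdown arrays, against 8.59, 10.20 and 8.44 in wild-type LPS arrays and 8.85, 8.84 and 8.70 in unstimulated arrays. Array 2 was the highest of both LPS-treated groups, while the unstimulated arrays lay within 0.15 of each other. The LPS difference of Tcf4 was 0.28 (SE 0.46, limma adjusted p = 0.714) and -0.28 without wild-type LPS array 2. Irf7, an interferon-induced gene of the pDC list, was also highest in array 2 of each group, at 11.51 in knockdown, 12.30 in wild-type LPS and 10.19 in unstimulated cells, where the other arrays read 10.06 and 10.63, 9.92 and 10.17, and 7.81 and 7.83. Its part in the Tcf4 values was not tested.

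The third comparison sets knockdown cells after LPS against unstimulated wild-type cells. It mixes LPS with the knockdown and shares arrays with both comparisons above, but it gives the order of the groups. Irf8 fell by 1.12 (SE 0.20, limma adjusted p = 0.011) and Irf4 fell by 2.38 (SE 0.59, limma adjusted p = 0.0377), so that both stood in the order knockdown LPS, wild-type LPS, unstimulated wild-type, with the wild-type neighbours inside their spread. Zeb2 rose by 0.35 (SE 0.07, limma adjusted p = 0.0175). By this test 1 factor rose and 2 fell, against 4.23% and 6.64% of all genes (10.9% together), and 2 rose and 2 fell in the paired fit, against 5.62% and 8.65% (14.3% together). Knockdown values lay wholly above the unstimulated ones for 3 factors and wholly below for 3, against 12.2% and 15.0% of all genes (27.3% together). The factor that the paired fit adds is Spi1 (0.35, limma adjusted p = 0.0803, paired 0.0139), with 0.0354 in the group fit without wild-type LPS array 2. Without replicate numbers 1, 2 and 3 its paired adjusted p was 0.105, 0.0224 and 0.261. The call of Irf4 was lost without knockdown array 2 (limma adjusted p = 0.0958) or 3 (0.134), wild-type LPS array 3 (0.0643), or unstimulated array 1 (0.129) or 3 (0.113), and in a fit of the 2 groups (0.0595). The call of Zeb2 was lost without knockdown array 1 (0.0606) or unstimulated array 3 (0.0626). In the paired fit without replicate numbers 1 and 3 the adjusted p was 0.0666 and 0.0798 for Irf8, and 0.13 and 0.231 for Zeb2. For Irf4 it was 0.0252 and 0.0237. Klf4 read 8.34, 8.74 and 8.34 in knockdown arrays, all below the unstimulated arrays (-1.06, SE 0.29, limma adjusted p = 0.0524). Its adjusted p was 0.0407, 0.0497 and 0.0207 without wild-type LPS array 1, wild-type LPS array 2 and unstimulated array 2, 0.0442 with trend and robust settings and 0.0297 without dim genes. Zeb1 (-0.24, interval -0.90 to 0.42) and Batf3 (-0.27, interval -0.60 to 0.06) had highest values in wild-type LPS cells, with the other groups overlapping.

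Within an array, the log ratio of 2 factors shows whether they moved unequally, not which level is higher. Irf4 minus Irf8 averaged -1.10 ± 0.83 in knockdown cells and 0.33 ± 0.57 in wild-type LPS cells (SD, n = 3 each), a difference of -1.43 (exact permutation p = 0.2, two-sided). The pairs differed by -1.05, -1.48 and -1.77, although knockdown array 1 (-0.17) overlapped wild-type LPS array 2 (-0.25). Zeb1 minus Zeb2 averaged -4.92 ± 0.29 in knockdown cells and -3.09 ± 0.60 in wild-type LPS cells, with no overlap (exact permutation p = 0.1). After LPS in wild-type cells it stood at -3.09 ± 0.60, and at -4.33 ± 0.29 in unstimulated cells (exact permutation p = 0.1). Id2 minus Zeb2 averaged 1.08 ± 0.05 in wild-type LPS cells and 1.29 ± 0.13 in unstimulated cells (exact permutation p = 0.1). Id2 minus Tcf4 differed by 0.15 between knockdown and wild-type LPS cells (exact permutation p = 0.8). With 3 arrays against 3 the smallest exact p is 0.1, and the 8 ratios tested had adjusted values of 0.267 to 1.

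**Figure D3:**
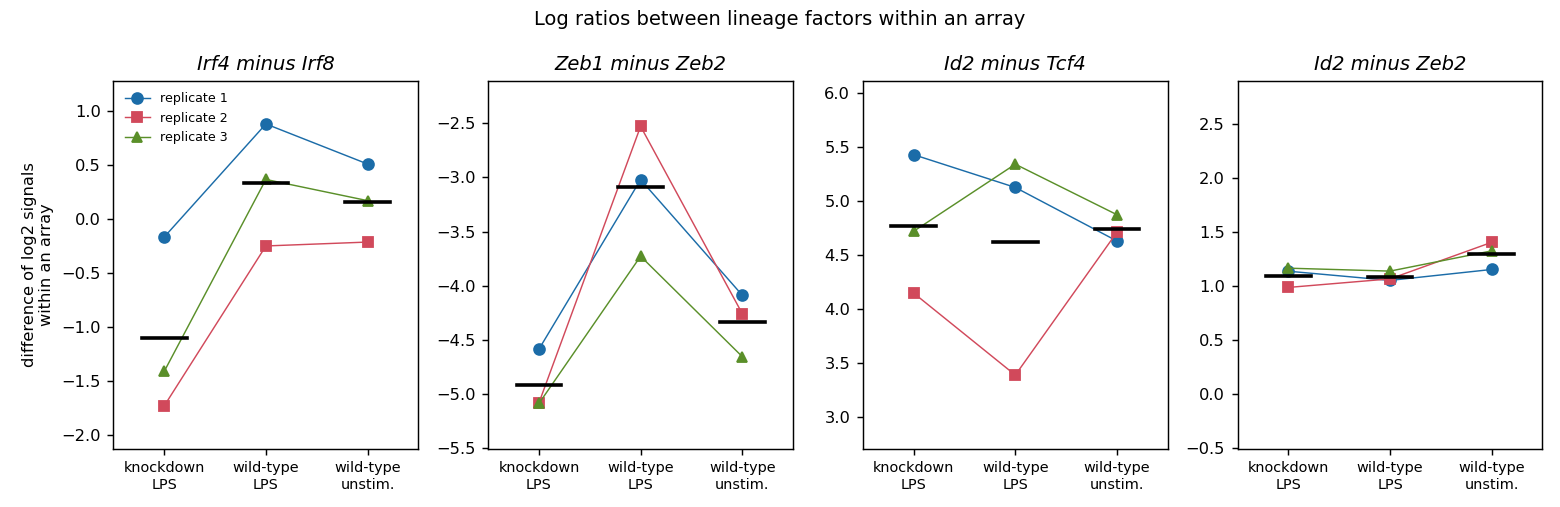
Difference of log2 signals between 2 factors within each array (vertical axis, 3.4 log2 units in each panel) for the 3 groups. Lines join arrays with the same replicate number and black bars are group means (n = 3). Zeb1 minus Zeb2 is highest in wild-type LPS cells, at -3.09 on average.

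Likeness of pattern was measured as Pearson r of the log2 signals over the 9 arrays, a description that is set mostly by the group means and by arrays both genes share. The genes most like Irf4 were H2-Eb1, an MHC class II chain (0.975), Nmb (0.973) and H2-Ab1, another class II chain (0.971). Irf8 was most like Fyn, a Src-family kinase (0.990), Tmem131l (0.983) and Asap2 (0.978), and Zeb1 most like Senp1 (0.973), Alox12 (0.969) and Atp13a4 (0.963). Zeb2 was nearest to Hivep1 (0.987), Batf3 to Slc6a19 (0.959) and Id2 to Eddm3b (0.966). The first genes for Tcf4, Spi1, Klf4 and Nfil3 were Ppm1k (0.968), Stk40 (0.977), 2810006K23Rik (0.997) and Tmem163 (0.940). Among the factors themselves, the values were 0.955 for Irf4 with Irf8 and 0.895 for Batf3 with Zeb1.

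Of 18 DNA-binding partners and family relatives, 1 rose and 0 fell in the knockdown: Spic, an ETS factor related to Spi1, read 11.29, 11.36 and 11.34 in knockdown arrays, against 8.71, 7.65 and 9.41 in wild-type LPS arrays (2.74, SE 0.44, limma adjusted p = 0.0384). Of all genes, 0.401% rose and 0.361% fell by limma. At a raw p under 0.05, 4 of the list were higher and 2 lower. The list's median difference was -0.02, beside -0.03 over all genes. After LPS in wild-type cells 4 of the list rose and 0 fell, against 3.99% and 6.86% of all genes (median 0.14, beside 0.04). They were Batf (1.09) and Batf2 (0.72), relatives of Batf3, with Junb, a JUN partner of BATF proteins (0.67), and Ets2 (1.89), at limma adjusted p from 0.00599 to 0.028. Batf differed by -0.17 in the knockdown (limma adjusted p = 0.811). Batf2 read 7.46, 7.53 and 7.76 in knockdown arrays, against 7.94, 8.40 and 8.04 in wild-type LPS arrays and 7.42, 7.37 and 7.43 in unstimulated arrays. As for Batf3, the wild-type LPS values were the highest and overlapped neither other group (-0.55 in the knockdown, limma adjusted p = 0.0985). The E protein Tcf3 differed by -0.27 in the knockdown (limma adjusted p = 0.108).

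Of 30 measured other regulators of dendritic cell development, 2 fell and 0 rose in the knockdown, against 0.361% and 0.401% of all genes. Runx3, a Runt-domain factor, read 8.07, 8.04 and 7.80 in knockdown arrays, against 9.67, 9.20 and 9.22 in wild-type LPS arrays (-1.40, SE 0.23, limma adjusted p = 0.0421). Rbpj, the DNA-binding protein of Notch signalling, read 12.03, 12.03 and 11.85 in knockdown arrays, against 12.64, 12.499 and 12.77 in wild-type LPS arrays (-0.67, SE 0.09, limma adjusted p = 0.0198). The paired fit added Etv6 (-0.33, limma adjusted p = 0.059, paired 0.0396). That fit called 1.24% of all genes lower. At a raw p under 0.05, 7 of the list were lower and 2 higher. The list's median was -0.21, beside -0.03 over all genes. After LPS in wild-type cells 7 rose and 2 fell, against 3.99% and 6.86% of all genes, with a median of 0.20. Prdm1, which encodes BLIMP-1, rose by 2.01, Relb, an NF-kB subunit, by 1.23 and Ikzf1, which encodes Ikaros, by 0.75, while Runx1 fell by 0.89 (limma adjusted p from 0.000507 to 0.00467).

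Genes that mark the subtypes were counted in the same way. For the cDC2, cDC1 and pDC lists alike, the shares of all genes called are the baseline. In the knockdown 0.361% fell and 0.401% rose by limma, and 1.24% and 1.51% in the paired fit. After LPS in wild-type cells 3.99% rose and 6.86% fell by limma, and 5.19% and 9.57% in the paired fit. Of 17 genes of cDC2 or known to depend on Irf4, 1 fell and 0 rose in the knockdown, and 3 were called lower in the paired fit. At a raw p under 0.05, 5 were lower and 0 higher. The list median was -0.32, beside -0.03 over all genes. Pdcd1lg2, a ligand of PD-1, read 8.61, 7.32 and 6.87 in knockdown arrays, against 10.97, 10.18 and 10.11 in wild-type LPS arrays (-2.82, SE 0.47, limma adjusted p = 0.0421). Ciita, the master regulator of MHC class II genes, read 8.53, 7.62 and 7.50 in knockdown arrays, against 10.23, 8.69 and 9.30 in wild-type LPS arrays, without overlap. Its difference was -1.53 (limma adjusted p = 0.305, paired 0.0228), and it was named after its values were seen. Itgam (CD11b) differed by -0.60 (limma adjusted p = 0.148, paired 0.0111), and the chemokine Ccl22 by -3.08 (limma adjusted p = 0.103, paired 0.066). After LPS in wild-type cells 0 of the 17 were called by limma or in the paired fit, and 2 had a raw p under 0.05, 1 of them higher. Ccl22 differed by 1.88 there (limma adjusted p = 0.139).

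Of 15 measured cDC1 genes, 0 were called in the knockdown by limma or in the paired fit (median -0.10), while 3 had a raw p under 0.05, 2 of them higher. The difference was -0.78 for Btla, an inhibitory receptor (limma adjusted p = 0.144), and 0.37 for Cd24a (limma adjusted p = 0.227). After LPS in wild-type cells 1 of them rose, the endocytic receptor Ly75 by 1.78, and 2 fell, Rab7b by 2.09 and Cd24a by 0.48. Of 13 measured pDC genes, 0 were called in the knockdown by limma or in the paired fit (median -0.10), while 3 had a raw p under 0.05, all lower. After LPS in wild-type cells 1 of them rose, the chemokine receptor Ccr9 (0.47, limma adjusted p = 0.0253). It read 6.12, 6.19 and 6.08 in wild-type LPS arrays, against 5.59, 5.70 and 5.69 in unstimulated arrays. These signals are below the array medians of 7.22 to 7.32, and RMA gives no detection call. The paired fit called 2 of the 13 higher after LPS and 0 lower.

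**Figure D4:**
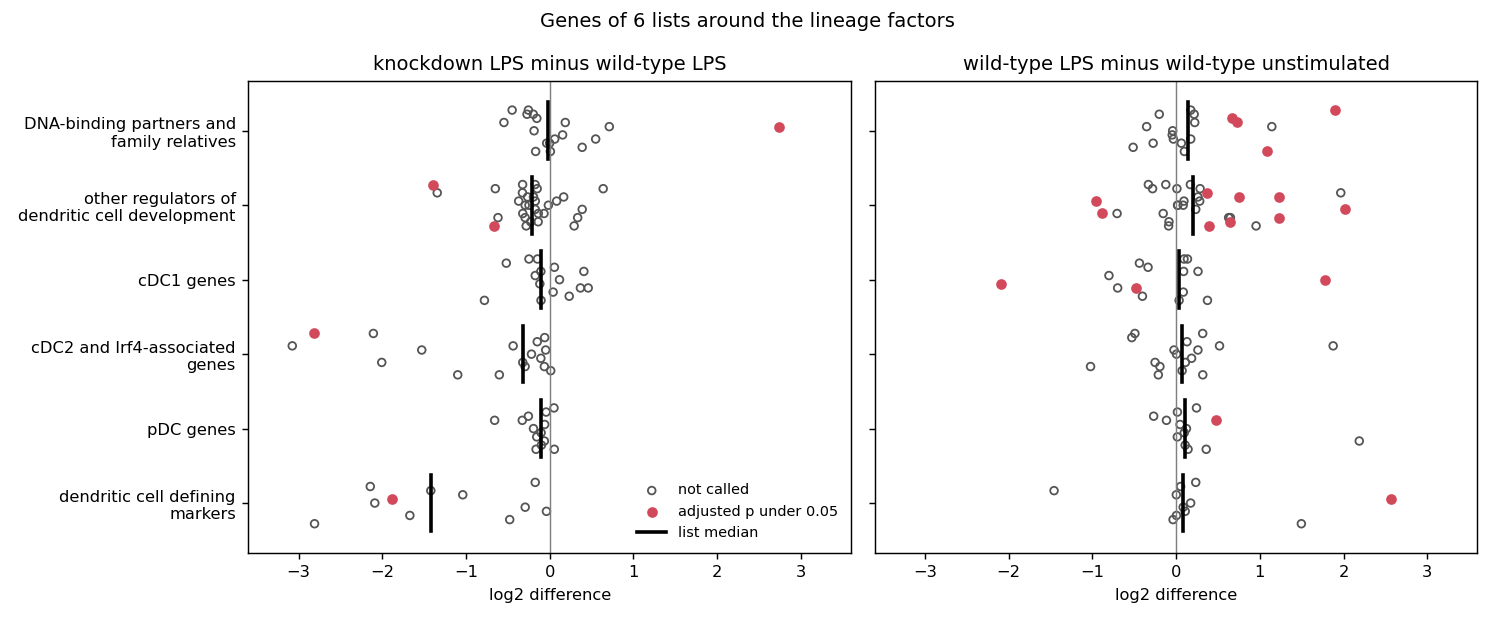
Log2 differences (horizontal axis) of the genes of 6 lists, for knockdown minus wild-type cells after LPS (left) and LPS-treated minus unstimulated wild-type cells (right). Each point is a gene, filled where the limma adjusted p is under 0.05, and bars are list medians. The dendritic cell defining markers have a median of -1.42 in the knockdown and 0.08 after LPS.

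Marker lists of cell types were read in the same arrays. In the knockdown 0.361% of all genes fell and 0.401% rose by limma, and 1.24% and 1.51% in the paired fit. The 11 dendritic cell defining markers had a mean log2 signal per array of 9.04 to 10.13 in knockdown cells, against 10.41 to 11.03 in wild-type LPS cells and 10.10 to 10.79 in unstimulated cells. Of them 1 fell, Fscn1 (-1.89, limma adjusted p = 0.0476), and 4 were called lower in the paired fit, with a median of -1.42. At a raw p under 0.05, 7 were lower and 0 higher. Fscn1 read 9.20, 8.40 and 9.33 in knockdown arrays, against 11.29, 10.22 and 11.09 in wild-type LPS arrays and 8.62, 8.11 and 8.19 in unstimulated arrays. Its wild-type LPS values were thus the highest, and the knockdown and unstimulated values overlapped. The 12 mast cell and basophil markers ranged from 6.30 to 6.63 in knockdown cells, against 6.93 to 7.29 in wild-type LPS cells and 6.63 to 6.85 in unstimulated cells, with 0 called by limma, 5 lower with a raw p under 0.05, and Kit, Gata2 and Cpa3 lower in the paired fit (-1.73, -0.87 and -1.88). The 14 measured macrophage and monocyte markers ranged from 10.26 to 11.13, against 11.01 to 11.37 and 11.07 to 11.66, with 0 called by limma or in the paired fit in the knockdown, while 2 had a raw p under 0.05, 1 of them higher. The 12 neutrophil and granulocyte precursor markers ranged from 7.75 to 9.70, against 8.94 to 10.31 and 8.39 to 9.54, with 0 called by limma, 4 lower with a raw p under 0.05, and Mpo lower in the paired fit (-1.74, limma adjusted p = 0.0825, paired 0.032). The 9 measured lymphocyte markers ranged from 6.72 to 6.74, against 6.69 to 6.86 and 6.74 to 6.79, with 0 called by limma, 2 lower with a raw p under 0.05, and Il7r lower in the paired fit (-0.62, limma adjusted p = 0.147, paired 0.0232). The part of these markers in the values of Irf4, Irf8, Batf3 and Zeb1 was not tested. In bulk RNA, fewer cells of a type and less RNA per cell cannot be told apart.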

How the data were processed

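The deposited values are log2 signals per probe set that the authors made with RMA, a step named without a version in the submitters' processing notes. No further normalization was applied. Of 35556 probe sets, 21789 named a single gene. Symbols were updated by Entrez identifier through RefSeq (GRCm38.p6), and the probe set with the highest mean stood for each of 19938 genes.

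With limma 3.58.1 (R 4.3.3), group means were estimated from the 9 arrays (6 residual degrees of freedom, 2.31 from the prior). Tests were two-sided, p-values were adjusted over all genes, and an adjusted p under 0.05 is a call. The design text gives independent cultures but not that a replicate number marks a shared one. Deviations from group means correlated by 0.14 to 0.48 in the 9 same-numbered pairs of arrays and by -0.41 to 0.25 in the 18 others, so the paired fit has the number as a block.

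The factors, lists, named genes and tests were chosen with earlier results of these data known. Named genes are all 10 factors, Kdm4d, up to 4 genes of each list with the smallest p in the knockdown and in the LPS comparison, and the 3 genes most like each factor. Cpa3, Ciita, Itgax, Cd74, Siglech, Zbtb46, Dpp4, Ngp and C1qb fall outside that rule and were named after their values were seen. So do Cd209a, Mgl2, Clec10a, Clec4a4 and Bst2. Precision is limited by 3 arrays a group.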

Additional observations from a re-analysis of the deposited data

How the results depend on the processing

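Across 16 alternative settings and 3 added after seeing the data, of 570 values for single factors 482 kept their direction and side of the threshold, 41 lost a call, 18 gained one and 29 changed sign. Many differences could not change. Each factor has a single probe set, so averaging probe sets left all 30 values the same. The replicate block, the fit of the 2 groups, the trend and robust settings and leaving out dim genes also keep every difference. So does leaving out an array of a group not compared. There only the p could move, so the tally is no measure of robustness. For the knockdown against wild-type cells after LPS, the number of factors called lower, 1, became 4 with the replicate block and 0 in a fit of the 2 groups. It ranged from 0 to 1 when single arrays were left out, and from 0 to 3 when a whole replicate number was left out of the paired fit, which leaves 2 pairs. For LPS in wild-type cells, the 2 called higher ranged from 0 to 3 and the 1 called lower from 0 to 2 when arrays or numbers were left out. The 1 called lower became 0 with the replicate block, median centring, quantile normalization and the fit of the 2 groups. For the third comparison, the 1 called higher became 2 with the replicate block and ranged from 0 to 2, and the 2 called lower became 1 in the fit of the 2 groups and ranged from 1 to 3. Pairing by replicate number cannot change the difference of a log ratio. Its exact p comes from changing the signs of the 3 pairs and cannot be under 0.25, and it ran from 0.25 to 1. The changes of sign concern differences that no setting called, the largest in the main fit being 0.281 for Tcf4 after LPS in wild-type cells. In the knockdown comparison, Zeb2 was at 0.013 with median centring and 0.00 with quantile normalization, and Id2 at 0.024 with median centring. With single arrays left out the values there ranged from -0.066 to 0.009 for Zeb2, -0.065 to 0.032 for Id2, -0.476 to 0.402 for Tcf4, -0.021 to 0.157 for Spi1, -0.184 to 0.235 for Klf4 and -0.109 to 0.326 for Nfil3. With a replicate number left out of the paired fit they ranged from -0.088 to 0.027 for Zeb2, -0.035 to 0.030 for Id2, -0.501 to 0.126 for Tcf4, -0.118 to 0.223 for Klf4 and -0.244 to 0.351 for Nfil3. For LPS in wild-type cells Irf4 was at 0.028 with quantile normalization, from -0.460 to 0.346 without single arrays and from -0.113 to 0.026 without a number. Tcf4 there ranged from -0.281 to 0.598 and from -0.261 to 0.553, and Nfil3 from -0.003 to 0.462 without a number. In the third comparison Tcf4 ranged from -0.154 to 0.422 and from -0.134 to 0.449. The causes were not tested.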

Other observations

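Of the lectin genes in the cDC2 list, Cd209a, Mgl2, Clec10a and Clec4a4 had their lowest value in array 2 of every group, while Clec4a2 did not: it read 11.27, 10.83 and 11.38 in knockdown arrays 1 to 3, against 10.93, 11.38 and 11.35 in wild-type LPS arrays and 11.67, 11.72 and 11.85 in unstimulated arrays. Cd209a (DC-SIGN) read 9.65, 6.88 and 7.73 in knockdown arrays 1 to 3, against 11.62, 8.06 and 10.90 in wild-type LPS arrays and 12.49, 7.70 and 11.86 in unstimulated arrays. Mgl2 read 8.55, 6.80 and 8.09 in knockdown arrays, against 11.35, 7.56 and 10.56 in wild-type LPS arrays and 11.64, 7.30 and 11.29 in unstimulated arrays. Clec4a4 read 5.25, 5.18 and 5.49 in knockdown arrays, against 5.57, 5.26 and 5.75 in wild-type LPS arrays and 5.71, 5.25 and 5.61 in unstimulated arrays. In array 2 Clec10a read 6.20, 6.57 and 6.62 in knockdown, wild-type LPS and unstimulated cells. Irf4 was also lowest in array 2 of each group, at 7.06, 9.25 and 9.31. Bst2, an interferon-induced gene of the pDC list, was highest in array 2 of each group, at 10.62, 11.27 and 10.84. These genes were named after their values were seen.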
